A study of Mus musculus with 57 samples.

Results

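A set of 10 genes of the vascular endothelium and of angiogenic signalling were followed in mouse hearts after doxorubicin, an anthracycline chemotherapy, given alone or with nicotinamide mononucleotide (NMN), a precursor of NAD+. The members were taken by symbol: the endothelial identity genes Pecam1 and Cdh5, the VEGF receptor genes Kdr and Flt1 with the ligand gene Vegfa, the angiopoietin receptor gene Tek with the ligand gene Angpt1, the apelin gene Apln with its receptor gene Aplnr, and Esm1. All 10 were found in both gene count tables, among 25416 genes in the acute study and 54658 in the chronic study. The rule used symbols and no measured value, but the set was proposed with results of these data known. In GRCm38 they lie at chr11:106654217-106750628 (Pecam1), chr8:104101625-104144511 (Cdh5), chr5:75932827-75978458 (Kdr), chr5:147561604-147726011 (Flt1), chr4:94739289-94874976 (Tek), chr17:46016993-46032369 (Vegfa), chr15:42424723-42676977 (Angpt1), chrX:48025146-48034853 (Apln), chr2:85136225-85139923 (Aplnr) and chr13:113209659-113218098 (Esm1).

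Both studies used male C57BL6/J mice without a transgene, and RNA was taken from heart tissue rather than from sorted cells. In the acute study, mice bought at 9 weeks of age received a single intraperitoneal injection of 20 mg/kg doxorubicin (Doxo, n = 13 hearts) or saline (Ctrl, n = 14), and hearts were taken on day 5. The Doxo-NMN group (n = 13) also received 180 mg/kg NMN intraperitoneally each day, from 5 days before doxorubicin. In the chronic study, mice of 14 to 16 weeks received 5 injections of 4 mg/kg doxorubicin (n = 6) or PBS (n = 5), with hearts taken on day 60. The chronic Doxo-NMN mice (n = 6) drank 500 mg/kg NMN per day from 5 days before the injections. The studies differed in dose schedule, time, NMN route, age and sequencing, and these cannot be told apart in any comparison between them. Acute libraries held 32409622 to 52102850 counted reads and chronic libraries 17769886 to 23862287.

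The endothelium lines every vessel and is held together by junction proteins, among them PECAM-1 and VE-cadherin, the product of Cdh5. VEGF-A signals through KDR (VEGFR-2), while FLT1 (VEGFR-1) binds VEGF-A tightly with weak signalling and can hold it away from KDR. Angiopoietin-1 acts through TIE2, the product of Tek, to keep vessels quiescent. Apelin and its receptor, a G protein-coupled receptor, act in vessel growth and cardiac contractility, and Esm1 encodes endocan, a proteoglycan secreted by activated endothelium. In whole hearts, fewer endothelial cells and less RNA per endothelial cell cannot be told apart, and Vegfa is also made by cardiomyocytes.

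The upstream sequences of Kdr, Flt1 and Apln are shown because these 3 genes carry the results below, the receptors moving in opposite directions and Apln falling the most. RefSeq windows of 250 bases before the gene start (GRCm38.p6) were matched for 6 of the 10 members, and 247 bases are printed for Kdr, since the other 3 lie inside the annotated gene. The sequences are given 5′ to 3′ in the direction of transcription, and capitals mark GGAA or, on the other strand, TTCC, the core that ETS factors such as ERG and FLI1 recognise.
Kdr, minus strand, chr5:75978459-75978705: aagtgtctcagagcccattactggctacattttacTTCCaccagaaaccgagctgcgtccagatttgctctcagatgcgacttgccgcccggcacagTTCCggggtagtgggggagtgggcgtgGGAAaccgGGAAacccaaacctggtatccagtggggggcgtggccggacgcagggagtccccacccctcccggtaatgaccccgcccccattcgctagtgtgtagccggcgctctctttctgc
Flt1, minus strand, chr5:147726012-147726261: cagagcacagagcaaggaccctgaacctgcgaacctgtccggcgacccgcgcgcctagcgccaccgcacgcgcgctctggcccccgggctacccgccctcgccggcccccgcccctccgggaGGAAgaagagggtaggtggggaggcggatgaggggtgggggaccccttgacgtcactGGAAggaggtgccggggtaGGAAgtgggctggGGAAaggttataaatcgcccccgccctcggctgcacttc
Apln, minus strand, chrX:48034854-48035103: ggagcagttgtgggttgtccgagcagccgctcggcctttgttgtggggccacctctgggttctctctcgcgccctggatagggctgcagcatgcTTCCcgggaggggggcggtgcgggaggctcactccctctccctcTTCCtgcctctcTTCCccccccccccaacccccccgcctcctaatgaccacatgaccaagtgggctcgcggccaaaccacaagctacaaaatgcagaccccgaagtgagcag
The Kdr window held 4 such cores, the Flt1 window 4 and the Apln window 3, with 93.4% of 32851 RefSeq windows holding at least 1 and 33.4% holding 4 or more. The core of the hypoxia response element, ACGTG or GCGTG on either strand, was found 2 times upstream of Kdr, 1 time upstream of Flt1 and 0 times upstream of Apln, and 38.6% of all windows held it.

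In Ctrl hearts all members were above the counting floor of 3 counts in each heart, with Esm1 the least covered, at 6 to 44 counts in the acute study. Per exon length and library size (RPKM), the acute order was Vegfa (89.6 ± 19.6 RPKM, SD, n = 14), Cdh5 (36.2 ± 5.26), Pecam1 (30.3 ± 2.78), Kdr (20.1 ± 4.46), Tek (13.6 ± 1.19), Flt1 (12 ± 1.47), Angpt1 (11.7 ± 5.49), Aplnr (7.63 ± 3.31), Apln (4.44 ± 1.25) and Esm1 (0.313 ± 0.13). Neighbours in this order did not differ beyond their SDs for Cdh5 and Pecam1, among Tek, Flt1 and Angpt1, and for Angpt1, Aplnr and Apln, each with the next. Chronic Ctrl hearts (n = 5) ran from Vegfa at 140.0 ± 18.9 RPKM to Esm1 at 1.03 ± 0.277, and Kdr (36.9 ± 4.35) overlapped with Pecam1 (31.8 ± 4.61), as did Aplnr (15.2 ± 3.55), Tek (14.7 ± 1.29) and Flt1 (13.4 ± 1.77) with each other.

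Some libraries stood apart from their group, by values of the members themselves among others. Acute Doxo replicate 6 had a red blood cell marker sum of 338 CPM (counts scaled to a common library size), whereas the Ctrl hearts held 437 to 4311 CPM and the Doxo group reached down to 1.19 CPM, and Kdr, Flt1, Vegfa, Apln, Aplnr and Esm1 lay within or just above the Ctrl range in it. Whether the library labelled acute Doxo replicate 6 carries the right group label could not be told from the sources used here, so every acute Doxo value that includes it holds as labelled. Chronic Doxo replicate 2 stood apart for Kdr, Flt1, Apln and Aplnr. Both hearts were picked out by values of members, acute Doxo replicate 6 also by the red blood cell sum. Leaving out a heart that is extreme for a member narrows the spread of that member. P-values and overlaps without such a heart are thus given beside the main ones, not as further support. The atrial marker Myl4 reached 100 CPM or more in 8 of 14 acute Ctrl, 5 of 13 Doxo and 4 of 13 Doxo-NMN hearts, and in none of the 17 chronic hearts. These are called high atrial hearts and the rest low atrial hearts. Acute Doxo replicate 6 is a low atrial heart, so values of low atrial Doxo hearts include it unless stated otherwise. The main results that rest on the hearts that stood apart are given with and without them. In the acute study, a median of 73.6% of counts from 1 to 20 were even, against 40.3% in the chronic study, and the sources used here do not say why. If fragments were counted 2 times each, the acute counts given here would overstate the reads behind them. With acute counts divided by 2, the members called were 9 in Doxo vs. Ctrl, 4 in Doxo-NMN vs. Doxo and 5 in Doxo-NMN vs. Ctrl. Acute Ctrl, Doxo and Doxo-NMN hearts summed to 746 to 852, 548 to 917 and 602 to 857 CPM for the 20 other endothelial identity genes, of which all 20 were above 3 counts in every heart, and the cardiomyocyte list to 62546 to 81081, 34470 to 84107 and 44122 to 93083 CPM.

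**Figure D1:**
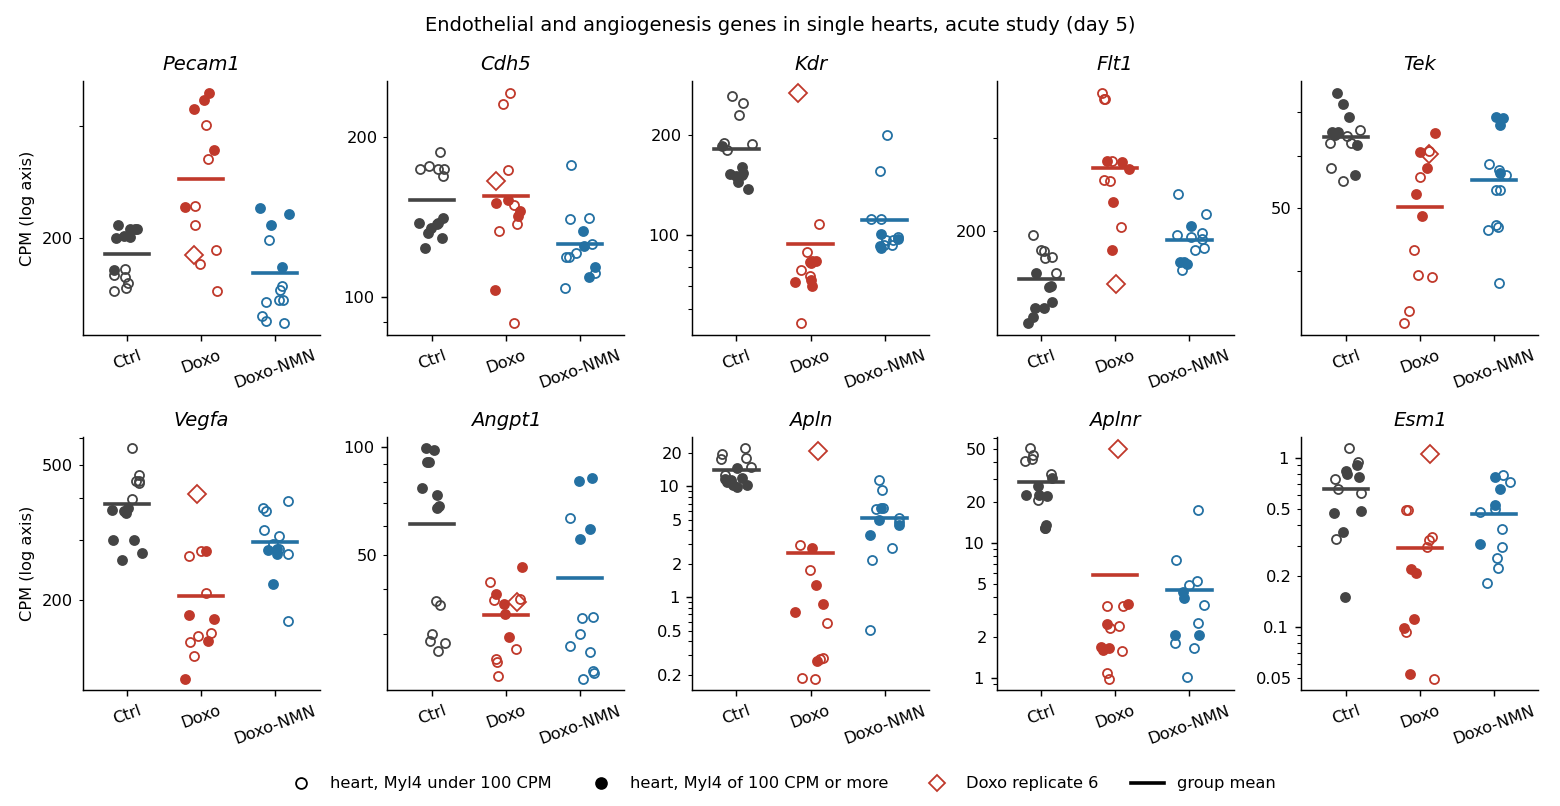
CPM of the 10 members in each acute heart by group, one panel per gene on a log axis, with lines for group means, filled points for hearts with Myl4 of 100 CPM or more and a diamond for Doxo replicate 6. In the Kdr, Apln and Aplnr panels 12 of 13 Doxo hearts lie below every Ctrl heart, and Doxo replicate 6 lies among or above them.

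Acute doxorubicin lowered most of these genes and raised a few. In acute Doxo vs. Ctrl, 9 of 10 members passed an adjusted p of 0.05 in edgeR's quasi-likelihood test, with 2 higher and 7 lower, where 68.1% of all 14240 tested genes passed (34.8% higher and 33.3% lower). With a change of at least 1.5-fold as well, 7 members passed, 1 higher and 6 lower, against 30.1% of all genes (14.7% and 15.4%). The members' median log2 fold change was -0.88, and that of all genes was near 0.

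Among the identity genes, Pecam1 and Cdh5 parted ways. Pecam1, the gene of an adhesion receptor of endothelium, platelets and leukocytes, ranged from 165 to 210 CPM (median 190) in Ctrl and from 165 to 339 CPM (median 225) in Doxo, and 8 of 13 Doxo hearts lay above every Ctrl heart. Pecam1 was higher in Doxo (log2 fold change 0.39, SE 0.0947, adjusted p = 0.00043). Cdh5 ranged from 124 to 187 CPM (median 140) in Ctrl and from 89.4 to 242 CPM (median 149) in Doxo, with 2 Doxo hearts above and 2 below the Ctrl range. The difference of Cdh5 was 0.02 on the log2 scale (SE 0.105, adjusted p = 0.845), and the Doxo SD of 42.5 CPM was larger than the Ctrl SD of 22.1 CPM. The log2 ratio of Pecam1 to Cdh5 was 0.32 ± 0.33 (SD, n = 14) in Ctrl and 0.68 ± 0.39 (n = 13) in Doxo. Both genes varied with the atrial class. In low and high atrial Ctrl hearts, Pecam1 was 172 and 201 CPM and Cdh5 176 and 134 CPM. In Doxo, Pecam1 was 216 and 297 CPM and Cdh5 165 and 139 CPM. Of the Ctrl hearts 8 of 14 were high atrial, and of the Doxo hearts 5 of 13, so the pooled ratios and SDs mix atrial class with treatment.

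The VEGF receptor genes moved in opposite directions. Kdr ranged from 138 to 263 CPM (median 170) in Ctrl, and in Doxo from 54.2 to 269 CPM (median 82.6). The 269 CPM was replicate 6, and the other 12 Doxo hearts, at up to 108 CPM, lay below every Ctrl heart. Kdr fell by 0.95 on the log2 scale (SE 0.168, adjusted p = 6.29e-06), and without replicate 6 by 1.19 (SE 0.12, adjusted p = 4.56e-11). Flt1 ranged from 133 to 196 CPM (median 162) in Ctrl and from 158 to 367 CPM (median 262) in Doxo, the 158 CPM again being replicate 6. Flt1 rose by 0.71 on the log2 scale (SE 0.0929, adjusted p = 3.2e-08), with 11 of 13 Doxo hearts above every Ctrl heart.

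**Figure D2:**
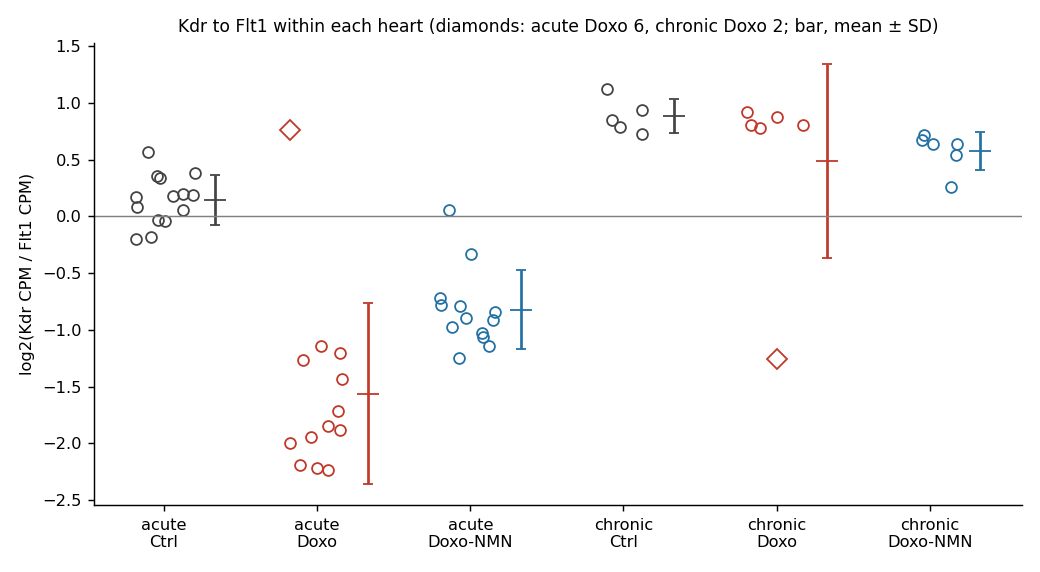
Log2 ratio of Kdr to Flt1 CPM in each heart of the acute and chronic studies, by group, with group means and SD. Acute Ctrl hearts lie between -0.20 and 0.57, and acute Doxo hearts other than replicate 6 between -2.24 and -1.14.

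The log2 ratio of Kdr to Flt1 was 0.15 ± 0.22 (SD, n = 14) in acute Ctrl, -1.56 ± 0.80 in Doxo (n = 13) and -0.82 ± 0.35 in Doxo-NMN (n = 13). Without Doxo replicate 6 it was -1.76 ± 0.40, and its hearts ranged from -2.24 to -1.14. All Doxo hearts other than replicate 6 were below the lowest Ctrl heart. Within atrial classes the directions were the same: Kdr was 217 and 155 CPM in the low and high atrial Ctrl hearts against 105 and 76.4 CPM in Doxo, and Flt1 was 180 and 147 CPM against 276 and 243 CPM. The low atrial Doxo means include replicate 6, at 269 CPM for Kdr and 158 CPM for Flt1.

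Vegfa, the gene of the ligand of both receptors, ranged from 263 to 561 CPM (median 372) in Ctrl and from 117 to 410 CPM (median 176) in Doxo. Of the 13 Doxo hearts, 9 lay below every Ctrl heart and the rest overlapped with them. Vegfa fell by 0.90 on the log2 scale (SE 0.149, adjusted p = 2.08e-06). Among the angiopoietin genes, Tek ranged from 55.0 to 75.1 CPM in Ctrl and from 33.2 to 65.1 CPM in Doxo, with 7 Doxo hearts below every Ctrl heart, and fell by 0.36 (SE 0.0928, adjusted p = 0.00091). Angpt1 ranged from 26.9 to 99.5 CPM (median 68.0) in Ctrl and from 22.8 to 46.3 CPM (median 36.4) in Doxo. It fell by 0.85 on the log2 scale (SE 0.231, adjusted p = 0.00138), a value that depended on the atrial class of the hearts.

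Angpt1 was the member most tied to the atrial class. In Ctrl it was 31.1 ± 4.31 CPM in the 6 low atrial hearts and 83.2 ± 13.1 CPM in the 8 high atrial hearts, against 31.8 ± 7.4 and 37 ± 6.27 CPM in the low (n = 8) and high (n = 5) Doxo hearts. Among low atrial hearts alone, Angpt1 differed by 0.01 (SE 0.195, adjusted p = 0.966), whereas among high atrial hearts it fell by 1.16 (adjusted p = 1.42e-06). Angpt1 overlaps 737 exon bases of Gm17473 on the other strand and the strand setting is not given in the sources used here, so reads of the pair cannot be told apart there. The other 8 called members had the same direction in both classes, with 7 of 10 called among low atrial hearts (54.8% of all genes) and 9 of 10 among high atrial hearts (60.1%). Cdh5 stayed uncalled in both classes, and Esm1 missed the threshold among low atrial hearts (-0.92, adjusted p = 0.0848). The low atrial Doxo hearts include replicate 6, where Esm1 was 1.05 CPM.

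The apelin pair showed the largest drops. Apln, the gene of the vasoactive peptide apelin, ranged from 9.77 to 22.1 CPM (median 12.3) in Ctrl and from 0.184 to 20.7 CPM (median 0.733) in Doxo. The 20.7 CPM was replicate 6, and the other 12 Doxo hearts, at up to 2.96 CPM, lay below every Ctrl heart. Apln was 5.48-fold lower (log2 fold change -2.45, SE 0.509, adjusted p = 6.2e-05), and without replicate 6 the log2 fold change was -3.76 (SE 0.387, adjusted p = 8.07e-11). Aplnr, the gene of its receptor, ranged from 13 to 50.5 CPM (median 24.6) in Ctrl and from 0.986 to 49.4 CPM (median 2.36) in Doxo. Again 12 of 13 Doxo hearts lay below every Ctrl heart and the 49.4 CPM was replicate 6. Aplnr was 4.82-fold lower (log2 fold change -2.27, SE 0.502, adjusted p = 0.000141), and without replicate 6 its log2 fold change was -3.69 (SE 0.35, adjusted p = 1.13e-11). When replicate 6 was left out, Kdr, Apln and Aplnr did not overlap between groups, which held for 14.2% of all tested genes and, as lower, for 6.5%. Since that heart was picked out in part by these genes, their lack of overlap follows from the choice. With it no member separated the groups, and 0.906% of all genes did. In all, 9 members passed without it, against 70% of all genes.

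Esm1 was the weakest signal, at 0.151 to 1.14 CPM (median 0.698) in Ctrl and 0.0493 to 1.05 CPM (median 0.22) in Doxo, that is 6 to 44 and 2 to 42 counts. It fell by 1.16 on the log2 scale (SE 0.337, adjusted p = 0.00263), with 5 Doxo hearts below every Ctrl heart. Since the red blood cell sum fell from 437 to 4311 CPM in Ctrl to 1.19 to 338 CPM in Doxo, these markers moved with the member results. So did neutrophil markers, with 4 of 4 tested genes higher and a list sum of 1.59 to 4.99 CPM in Ctrl and 2.69 to 259 CPM in Doxo (2.69 in replicate 6), and fibroblast markers, with 4 of 7 genes lower, 1 higher and sums of 757 to 1430 and 511 to 1408 CPM. The part of these cell types in the results, including that of leukocytes in Pecam1, was not tested.

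The differences were also read relative to the endothelial identity genes. On the log2(CPM + 0.5) scale, relative to the mean of Pecam1 and Cdh5 in the same heart, Apln was -3.59 ± 0.35 (SD, n = 14) in Ctrl, -6.91 ± 1.5 in Doxo (n = 13) and -4.90 ± 0.88 in Doxo-NMN (n = 13). Aplnr was -2.68 ± 0.61, -5.89 ± 1.3 and -5.22 ± 0.92. Kdr was 0.08 ± 0.27, -1.13 ± 0.66 and -0.45 ± 0.31, and Tek, the TIE2 gene, -1.39 ± 0.14, -1.94 ± 0.29 and -1.43 ± 0.25. Relative to the other endothelial identity list in place of Pecam1 and Cdh5, the Doxo minus Ctrl difference was -2.95 rather than -3.32 for Apln and -0.84 rather than -1.21 for Kdr, while Tek was -0.19 rather than -0.55 and Flt1 0.87 rather than 0.50. All these Doxo ratios include replicate 6. Without it, relative to Pecam1 and Cdh5, Doxo was -7.23 ± 1.0 for Apln, -6.23 ± 0.48 for Aplnr, -1.28 ± 0.42 for Kdr and -1.98 ± 0.27 for Tek (n = 12). These ratios carry no test.

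**Figure D3:**
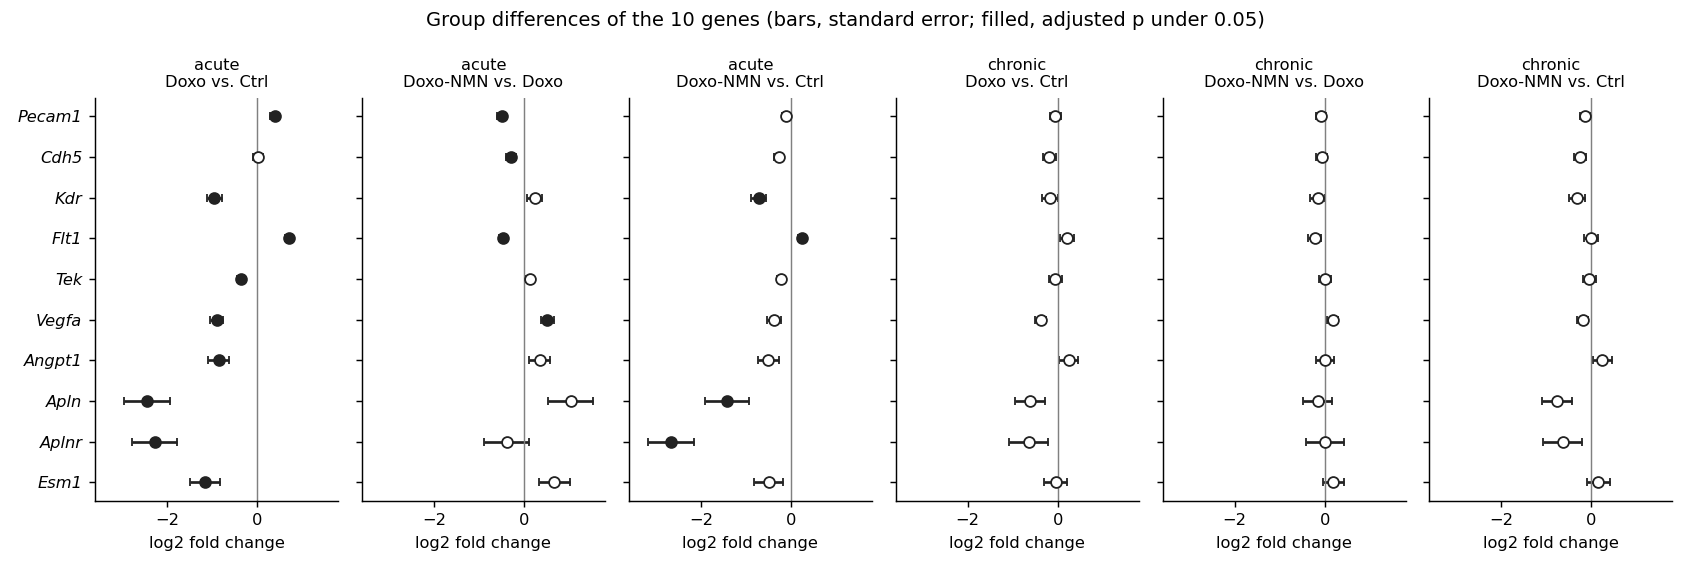
Log2 fold changes of the 10 members in the acute and chronic comparisons, with bars for the SE and filled points for an adjusted p under 0.05. In acute Doxo vs. Ctrl 9 points are filled, and Apln (-2.45) and Aplnr (-2.27) lie farthest from 0, while no chronic point is filled.

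With NMN, 4 of 10 members differed between acute Doxo-NMN and Doxo, with 1 higher and 3 lower, where 53% of all genes passed (25.7% higher and 27.4% lower). None passed at 1.5-fold as well, against 17.1% of all genes, so this share was not above the background. Vegfa was higher in Doxo-NMN, from 173 to 393 CPM (median 283), by 0.52 on the log2 scale (SE 0.151, adjusted p = 0.00373). Pecam1 (median 166 CPM) fell by 0.49 (adjusted p = 8.07e-05), Flt1 (median 193 CPM) by 0.46 (adjusted p = 0.000131) and Cdh5 (median 121 CPM) by 0.29 (adjusted p = 0.02). For Cdh5 this call was lost without Doxo replicate 4 (adjusted p = 0.057) or Doxo replicate 5 (0.0648) and within either atrial class (0.053 and 0.0678).

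The apelin pair and Kdr depended on replicate 6. With it, Kdr differed by 0.24 (adjusted p = 0.238), Apln by 1.04 (0.0774) and Aplnr by -0.39 (0.531) in Doxo-NMN vs. Doxo. Without it, 8 of 10 members were called against 58.1% of all genes (28.7% higher and 29.4% lower), 5 of them higher: Kdr by 0.48 (adjusted p = 0.000773), Vegfa by 0.65 (0.000108), Apln by 2.34 (2.2e-06), Aplnr by 1.04 (0.00735) and Esm1 by 1.04 (0.00595). Aplnr changed its sign when that heart was left out. Apln in Doxo-NMN ranged from 0.507 to 11.3 CPM (median 5.0), and 10 of the 13 hearts lay above all 12 other Doxo hearts. Aplnr in Doxo-NMN ranged from 1.01 to 17.5 CPM (median 3.45), with 6 hearts above those 12. Among high atrial hearts, which do not include replicate 6, 7 of 10 members passed in Doxo-NMN vs. Doxo against 39.3% of all genes, with Apln at 2.02 (adjusted p = 0.000648) and Angpt1 at 0.89 (0.000581), and 3 of 10 among low atrial hearts against 39.1%. Angpt1, Tek and Esm1 did not pass over all hearts, at 0.35 (adjusted p = 0.203), 0.14 (0.214) and 0.68 (0.0954).

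Acute Doxo-NMN vs. Ctrl shared the Ctrl and Doxo-NMN hearts with those comparisons, so its values stand beside them rather than as further support. In it 4 of 10 members passed, 1 higher and 3 lower, against 26% of all genes (15% higher and 11.1% lower). Aplnr remained lower (-2.66, SE 0.51, adjusted p = 0.000211), as did Kdr (-0.71, adjusted p = 0.0018) and Apln (-1.42, adjusted p = 0.0279), with 12, 11 and 12 of the 13 Doxo-NMN hearts below every Ctrl heart. Flt1 was 0.25 higher (adjusted p = 0.0445), a call lost in 23 of 38 alternatives, 17 of them leaving out 1 heart. Vegfa (-0.38, adjusted p = 0.0551) and Cdh5 (-0.27, adjusted p = 0.0539) did not pass. With the atrial class as a factor they did (Vegfa -0.45, adjusted p = 0.0128, and Cdh5 -0.32, adjusted p = 0.0114), whereas Flt1 did not (adjusted p = 0.0822). Among low atrial hearts alone, Aplnr and Kdr passed and Apln did not (-1.70, adjusted p = 0.151). Kdr ranged from 91.7 to 201 CPM (median 97.6) in Doxo-NMN, between the medians of Doxo and Ctrl.

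**Figure D4:**
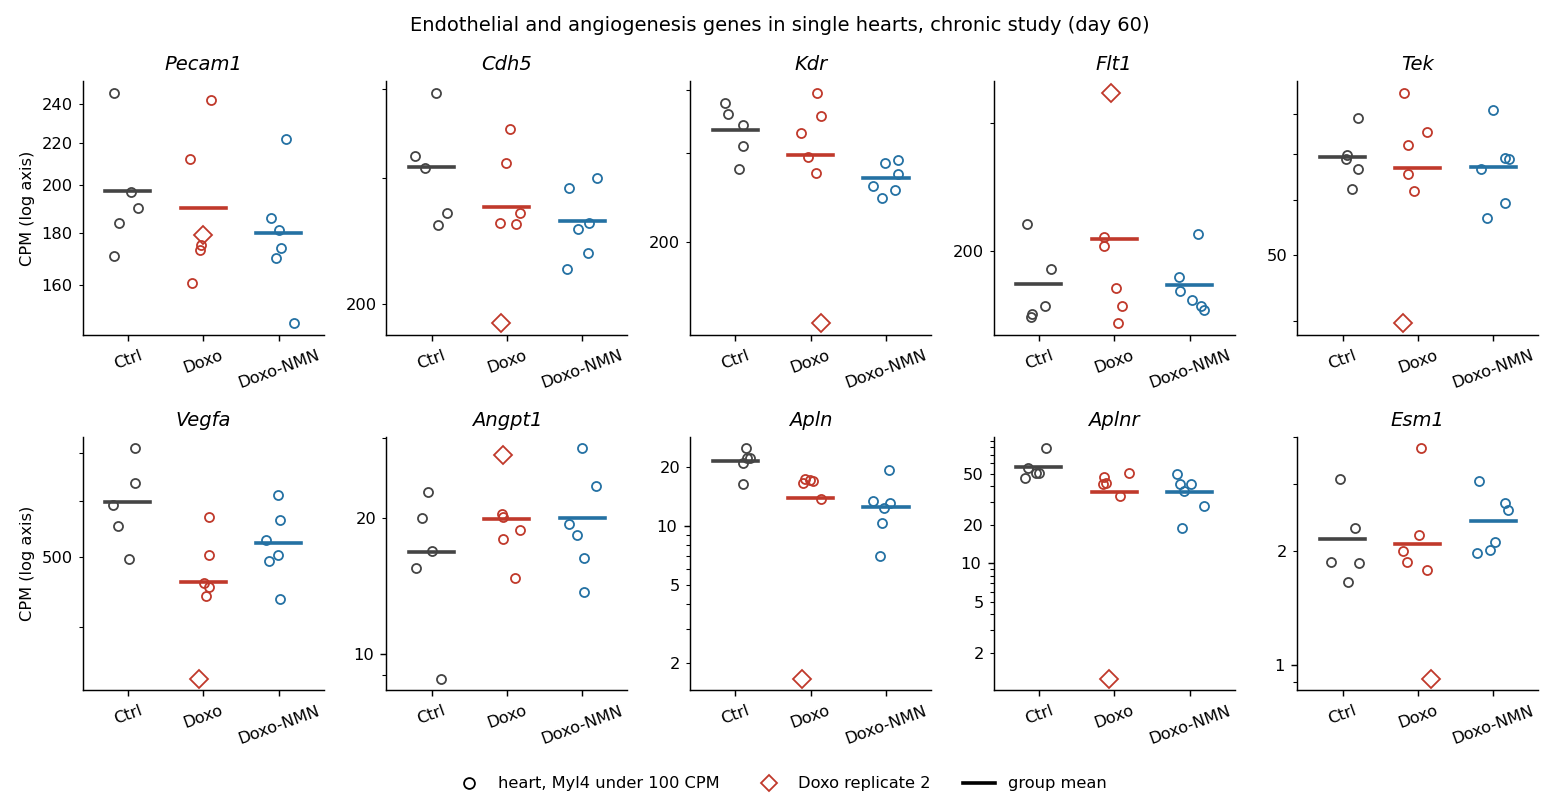
CPM of the 10 members in each chronic heart by group, one panel per gene on a log axis, with lines for group means and a diamond for Doxo replicate 2. That heart lies apart in the Kdr, Flt1, Apln and Aplnr panels, and the rest of the groups overlap.

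In the chronic study no member passed in any comparison, where 0.0602% of all 14960 genes passed in Doxo vs. Ctrl, 0% in Doxo-NMN vs. Doxo and 0.0401% in Doxo-NMN vs. Ctrl by edgeR. At an unadjusted p under 0.05 the corresponding shares of all genes were 7.85%, 2.95% and 4.73%, and DESeq2 also called 0 members. Vegfa was the member nearest the threshold in Doxo vs. Ctrl. It was 711, 553, 498, 636 and 591 CPM in the 5 Ctrl hearts and 504, 338, 442, 455, 570 and 460 CPM in the 6 Doxo hearts, and 4 Doxo hearts lay below every Ctrl heart. Its log2 fold change was -0.37 (95% interval -0.62 to -0.13, p = 0.007, adjusted p = 0.512 by edgeR).

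Kdr was 377, 279, 358, 341 and 309 CPM in the chronic Ctrl hearts and 328, 138, 274, 395, 355 and 294 CPM in the Doxo hearts. The 138 CPM was replicate 2. Apln was 16.3, 22.2, 22.1, 20.8 and 24.8 CPM in Ctrl and 13.7, 1.67, 17, 17.3, 16.4 and 16.8 CPM in Doxo, with the 1.67 CPM again replicate 2. Aplnr was 78.9, 46, 55.4, 50.3 and 50.1 CPM in Ctrl and 33.2, 1.26, 47, 50.4, 42.4 and 41.1 CPM in Doxo. For Apln the log2 fold change was -0.62 (95% interval -1.27 to 0.04), and for Aplnr -0.64 (-1.50 to 0.21). Without replicate 2 they were -0.38 and -0.39. In chronic Doxo-NMN, Apln was 6.99 to 19.1 CPM, and its log2 fold change against Ctrl was -0.77 (95% interval -1.42 to -0.12, p = 0.0321, adjusted p = 0.999 by edgeR).

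Flt1 was 218, 168, 164, 189 and 162 CPM in Ctrl and 178, 330, 159, 209, 203 and 168 CPM in Doxo, the 330 CPM in replicate 2. Replicate 2 was thus low for Kdr, Apln and Aplnr and high for Flt1, the directions in which the acute Doxo hearts lay. It was also the lowest chronic Doxo heart for Cdh5 (188 CPM), Vegfa (338 CPM), Tek (39.7 CPM) and Esm1 (0.919 CPM). For Angpt1 it was the highest, at 27.5 CPM against 14.7 to 20.4 CPM in the others and 8.82 to 22.8 CPM in Ctrl. That is opposite to the fall of Angpt1 over all acute Doxo hearts. Pecam1, higher in acute Doxo, was 179 CPM in replicate 2, within the range of the other chronic Doxo hearts. Cdh5 was not called in acute Doxo vs. Ctrl. Without replicate 2, chronic Doxo was 329 ± 48.5 CPM for Kdr and 184 ± 21.8 CPM for Flt1 (n = 5). The log2 Kdr to Flt1 ratio was 0.88 ± 0.15 in Ctrl, 0.49 ± 0.86 in Doxo and 0.58 ± 0.17 in Doxo-NMN, and 0.84 ± 0.06 in Doxo without replicate 2. Pecam1 was 246, 184, 190, 197 and 171 CPM in Ctrl and 161 to 242 CPM in Doxo, Cdh5 258 to 395 CPM and 188 to 351 CPM. The other members gave intervals that all crossed 0 in Doxo vs. Ctrl, with log2 fold changes of -0.18 for Cdh5, -0.06 for Pecam1 and Tek, 0.24 for Angpt1 and -0.04 for Esm1.

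The difference between the acute and the chronic effect of doxorubicin was tested as an interaction. It passed for 4 of 10 members (23.6% of all genes): Pecam1 by 0.44 (adjusted p = 0.0416), Kdr by -0.78 (0.0476), Flt1 by 0.50 (0.0374) and Angpt1 by -1.09 (0.0388). With only the 4 Ctrl and Doxo groups fitted, Angpt1 passed and Pecam1, Kdr and Flt1 did not. All 17 chronic hearts were low atrial, and with only low atrial acute hearts no member passed (14.2% of all genes): Angpt1 was at -0.23 (adjusted p = 0.606), Kdr at -0.90 (0.074), Flt1 at 0.39 (0.191) and Pecam1 at 0.36 (0.103). Those acute hearts include Doxo replicate 6, and the interaction was not fitted to low atrial hearts without it. The part of atrial class and that of replicate 6 thus cannot be told apart there. Without acute Doxo replicate 6 it passed for 8 (31.8% of all genes), with Apln at -3.14 (adjusted p = 0.000102) and Aplnr at -3.07 (0.000138). Without chronic Doxo replicate 2 it passed for 4 (29.3% of all genes), with Apln at -2.05 (adjusted p = 0.0448), and neither Pecam1 (0.0514) nor Angpt1 (0.0615) passed. For the effect of NMN no member passed (6.09% of all genes, 26.2% at an unadjusted p under 0.05), and 3 did without acute Doxo replicate 6 (17.8% of all genes).

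**Figure D5:**
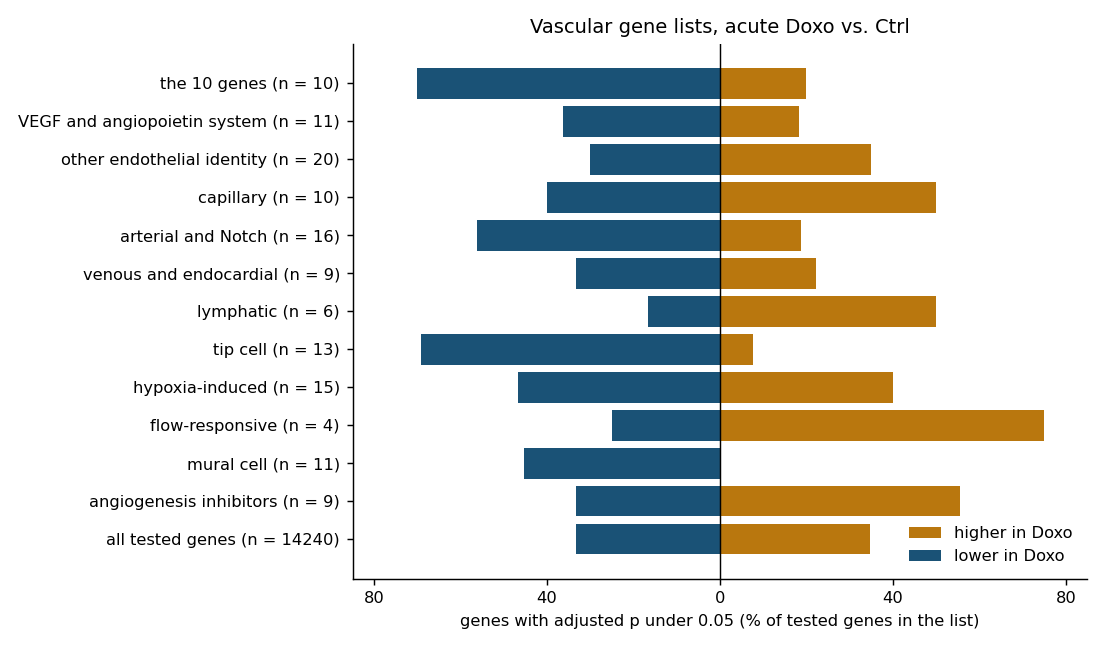
Share of tested genes with an adjusted p under 0.05 in acute Doxo vs. Ctrl, lower to the left and higher to the right, for the 10 members, each further vascular list without members, and all 14240 tested genes. The tip cell list, with 9 of 13 lower and 1 higher, and the members, with 7 lower and 2 higher, lean to the left.

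The wider vascular lists were read beside the members. Of 13 genes listed for tip cells of sprouting endothelium, 9 were lower and 1 higher in acute Doxo vs. Ctrl (median -0.58). Over all genes, 33.3% were lower and 34.8% higher. The list includes collagen, nidogen and laminin genes, and whole-heart RNA does not show which cells they came from. Fibroblast genes (4 lower and 1 higher of 7) and mural cell genes (5 lower and 0 higher of 11) also leaned lower, and their part was not tested. Plxnd1, the semaphorin receptor gene, was 127 CPM in Ctrl and 56.5 CPM in Doxo (log2 fold change -1.17, adjusted p = 1.34e-07), and Lama4, of the vascular basement membrane, was 84.1 and 45.3 CPM (-0.89, adjusted p = 5.06e-09). The arterial and Notch list had 3 higher and 9 lower of 16 (median -0.37), and Sox17, an arterial transcription factor, rose from 12.4 to 29.7 CPM (1.26, adjusted p = 1.45e-09). The VEGF and angiopoietin list had 2 higher and 4 lower of 11. In it, Pgf, a ligand of FLT1, rose from 4.56 to 9.32 CPM (1.03, adjusted p = 2.16e-09), and Nrp1, a VEGF co-receptor, fell from 83.5 to 54.3 CPM (-0.62, adjusted p = 1.52e-06).

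Most of the remaining lists held genes of both directions. The 20 other endothelial identity genes had 7 higher and 6 lower (median 0.0), with Icam2 (-0.84, adjusted p = 8.05e-08) and Cd34 (-0.87, adjusted p = 1.45e-07) lower and S1pr1 (0.52, adjusted p = 9.73e-07) higher. The capillary list other than Kdr had 5 higher and 4 lower of 10, and the hypoxia-induced list 6 higher and 7 lower of 15, with Pfkfb3 2.80 higher (adjusted p = 4.83e-10). Of 9 angiogenesis inhibitors 5 were higher and 3 lower (median 0.59), with Adamts1 from 43.3 to 255 CPM (2.56, adjusted p = 9.37e-10) and Vash1 from 10.4 to 3.9 CPM (-1.42). The mural cell list, for pericytes and smooth muscle, had 0 higher and 5 lower of 11, and its sum was 1141 to 1525 CPM in Ctrl and 585 to 1389 CPM in Doxo. Venous and endocardial genes were 2 higher and 3 lower of 9, lymphatic genes 3 higher and 1 lower of 6, and flow-responsive genes 3 higher and 1 lower of 4. In acute Doxo-NMN vs. Doxo, where 25.7% of all genes were higher and 27.4% lower, the tip cell list had 3 higher and 3 lower of 13, the arterial and Notch list 2 and 6 of 16, the VEGF and angiopoietin list 2 and 3 of 11, and the angiogenesis inhibitors 1 and 5 of 9. In the chronic comparisons 0 genes of any of these lists passed.

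Across hearts, with group means subtracted, Vegfa and Apln moved together. Correlations between members are given within atrial classes, and the 45 member pairs were adjusted together. In the 22 low atrial hearts without Doxo replicate 6, Pearson's r of Vegfa with Apln was 0.86 and Spearman's rho 0.75 (permutation p = 1e-04, adjusted 0.0045), and r was 0.73 without the 2 farthest hearts. In the 17 high atrial hearts r was 0.80 and rho 0.49 (permutation p = 0.0119, adjusted 0.186), falling to 0.31 without the 2 farthest hearts, so there the relation rested on those hearts. Of the further pairs, Cdh5 with Flt1 had r of 0.80 and rho of 0.76 (adjusted permutation p = 0.0198) and Pecam1 with Cdh5 r of 0.80 and rho of 0.74 (0.021) in the same 22 hearts. In these 22 low atrial hearts 4 of 45 pairs passed, and in the high atrial hearts 0. Over the 17 chronic hearts 20 of 45 pairs passed, and 15 did without chronic Doxo replicate 2. The genes most like 4 of the members were taken over all 40 acute hearts, replicate 6 and both atrial classes included. For Apln they were Mdga1 (r = 0.92), Fkbp4 (0.92) and Plxnd1 (0.91), with 0.94, 0.96 and 0.94 in low and 0.80, 0.84 and 0.75 in high atrial hearts, and 0.93, 0.83 and 0.90 over the 17 chronic hearts. For Cdh5 they were Tspan15 (0.88), Tie1 (0.87) and Robo4 (0.86), which had 0.90, 0.90 and 0.86 in low but 0.81, 0.57 and 0.66 in high atrial hearts. For Vegfa they were Narf (0.90), Rxrg (0.89) and Scube2 (0.88), with 0.92, 0.82 and 0.82 in high atrial hearts and -0.16, 0.04 and -0.30 in the chronic hearts. Esm1, with few counts, reached 0.71 with Lrrc55 (0.80 in low and 0.48 in high atrial hearts). These are descriptions over hearts that share groups and treatments, with no test.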

How the data were processed

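RNA was measured by poly(A) RNA-seq, sequenced single-end, in 40 acute and 17 chronic hearts. The authors mapped reads to mm10 with STAR 2.7.3a and counted them per gene with featureCounts 2.0.0, per the labels and the submitters' processing notes, and deposited raw gene counts in a table for each study. Counts were used as deposited. Groups came from sample titles. In edgeR 4.0.16 (R 4.3.3), genes passing filterByExpr by group were tested (14240 for acute hearts, 14960 for chronic ones) with TMM scaling, the quasi-likelihood test, the 3 groups of a study fitted together and Benjamini-Hochberg adjustment over all tested genes. DESeq2 1.42.0 and limma 3.58.1 (voom) were alternatives. CPM and RPKM were computed from counts and exon lengths. Ratios used log2(CPM + 0.5). Correlations used 100000 permutations within groups in scipy 1.17.1. The 10 members were named in every comparison, and from each further list at most 3 genes with the smallest adjusted p in acute Doxo vs. Ctrl. The members and lists were chosen with earlier results of these data known. P-values measure the spread between hearts. A chi-square check found no pair of replicates within sampling noise. Tests were first run on simulated data. The 95% intervals used a normal quantile of 1.96. With 32409622 to 52102850 counts per acute library, 3 counts equal 0.055 to 0.105 CPM, and 0.124 to 0.172 CPM in chronic libraries.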

Additional observations from a re-analysis of the deposited data

Results flagged for a closer look

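Chronic Doxo replicate 2 lay far from the other 5 Doxo hearts for 4 members. Kdr was 138 CPM there and 274 to 395 CPM in the others. Flt1 was 330 CPM, against 159 to 209 CPM. Apln was 1.67 CPM, against 13.7 to 17.3 CPM, and Aplnr was 1.26 CPM, against 33.2 to 50.4 CPM. These were 4 of 30 sets of a gene and a group looked at, and chance marks about 1 in 20 such sets if they are independent. All 4 came from the same heart, so they are not independent, and no excess over chance can be read from them.

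The effect of doxorubicin differed between the acute and the chronic study, by the interaction term of edgeR, for Pecam1 (log2 difference 0.44, SE 0.163, adjusted p = 0.0416), Kdr (-0.78, SE 0.298, adjusted p = 0.0476), Flt1 (0.50, SE 0.179, adjusted p = 0.0374) and Angpt1 (-1.09, SE 0.395, adjusted p = 0.0388). With only the 4 Ctrl and Doxo groups fitted, Angpt1 alone of these passed. Without chronic Doxo replicate 2, Pecam1 (adjusted p = 0.0514) and Angpt1 (0.0615) did not. With only low atrial acute hearts, the class of all chronic hearts, none of the 4 passed, and Angpt1 was at -0.23 (adjusted p = 0.606). Those acute hearts include Doxo replicate 6, so atrial class and that heart cannot be told apart there.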

How the results depend on the processing

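The number of members called was 9 in acute Doxo vs. Ctrl whichever replicate was left out, and 0 in each chronic comparison. In acute Doxo-NMN vs. Doxo it was 8 with voom, 7 with high atrial hearts, 8 without Doxo replicate 6 (range 3 to 8 over single replicates left out) and 0 with a 1.5-fold limit added. In acute Doxo-NMN vs. Ctrl it was 7 with voom, 7 with only the 2 groups, 2 with low atrial hearts, and 3 to 6 with a replicate left out. For the acute against the chronic effect of doxorubicin it was 1 with only the 4 groups, 9 with voom, 8 without acute Doxo replicate 6 and 4 without chronic Doxo replicate 2. It was 8 without both hearts, and 0 with low atrial acute hearts, which include Doxo replicate 6. For the effect of NMN it was 7 with voom, 3 without acute Doxo replicate 6, 0 without chronic Doxo replicate 2 and 3 without both. Only these 2 hearts were left out of the interactions. With high atrial hearts, 0 pairs passed. A change of sign was counted as reversed only where the main or the alternative value was called. Such values were Angpt1 in acute Doxo vs. Ctrl with low atrial hearts (0.01) and Aplnr in acute Doxo-NMN vs. Doxo without Doxo replicate 6 (1.04). Aplnr there ranged from -0.80 to 1.04 over single replicates left out. Uncalled values also changed sign, such as Cdh5 in acute Doxo vs. Ctrl (-0.06 to 0.08 over single replicates left out). The causes were not tested. Atrial class as a factor and the interactions without chronic Doxo replicate 2 or with low atrial hearts were chosen after seeing the data. Same-numbered acute hearts had a median r of 0.0656 (-0.676 to 0.645, 18 of 39 pairs over 0.1), against -0.0374 for other pairs. In the chronic study the medians were 0.034 (5 of 16 pairs over 0.1) and -0.0188. Whether the numbers pair hearts is not settled by these values, and the main tests did not pair them. With the replicate number as a block 9, 7 and 6 members were called in the acute comparisons and 0 in the chronic ones. Over member values, 1713 of 1834 alternatives kept the call or its absence, 39 lost a call, 80 gained one and 2 reversed. Uncalled values that changed sign are among the 1713. Esm1, at 2 to 44 acute counts, is the member most limited by depth.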
